A study of Homo sapiens with 2 samples.

Results

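UBE2 genes encode the E2 ubiquitin-conjugating enzymes, and their contacts with NUDT21 in J-Gamma1 cells were read from a list of eCLIP-seq peaks. The set was every protein-coding gene of GENCODE release 44 whose symbol starts with UBE2, readthrough genes left out, and a peak belonged to a gene when its midpoint lay in the gene body. It held 36 of 19396 such protein-coding genes and 54 of the 20499 listed peaks. At least 1 peak was found in 21 of the 36 genes (58.3%, exact 95% interval 40.8 to 74.5), where the share over all protein-coding genes was 33.4%. A peak in a 3'UTR was found in 9 of the 36 genes (25.0%, 12.1 to 42.2), against 14.3% of all genes with a 3'UTR. Genes are not replicates, and these intervals cover counting error only.

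An E2 enzyme receives activated ubiquitin from an E1 enzyme as a thioester on its active-site cysteine and passes it, usually with an E3 ligase, to a substrate. Some E2 enzymes carry a ubiquitin-like protein such as NEDD8 or ISG15 in place of ubiquitin, and the choice of E2 helps to set which lysine links a ubiquitin chain. NUDT21 belongs to the mammalian cleavage factor I complex and binds UGUA upstream of poly(A) sites, where transcripts are cleaved and polyadenylated. It takes part in the choice between proximal and distal poly(A) sites.

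The study used eCLIP-seq to ask whether NUDT21 acts directly on the 3' end processing of genes in T-ALL, a leukemia of immature T cells. The genes in question were those whose poly(A) site choice changed after NUDT21 knockdown. J-Gamma1 is an established T-ALL line, a subline of Jurkat that lacks phospholipase C-gamma1. The 2 samples were J-Gamma1 cells processed with a NUDT21 antibody and J-Gamma1 cells taken as input, both crosslinked on ice by UV-C at 254 nm (400 mJ each time). Lysis took 15 min, and RNase I (40 U) acted for 5 min. Peaks were listed for the antibody library, which had no replicate, and the input was not analysed here.

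Each listed peak came with a fold enrichment, the ratio of its pileup plus 1 to the local background plus 1, and with a Score that took whole steps of 0.228, so that peak heights are given here as a number of steps. The deposited p-values of the 54 peaks reached 0.0469 at most, and the deposited FDR was 1 for all 54. The median fold enrichment was 1.89 over the 54 peaks and 1.61 over the peaks of all protein-coding genes. Peaks of 5 or more steps made up 29 of the 54 (53.7%, 39.6 to 67.4), against 45.4% over all protein-coding genes. They lay in 13 of the 36 genes (36.1%, 20.8 to 53.8), against 14.4% of all genes. The depth of the library is unknown, and the level of each transcript was not analysed here, so a gene without a peak and a gene with little RNA cannot be told apart.

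The sequences on which the description of the UBE2 genes turns are short windows of the hg38 reference, written 5' to 3' on the strand of the gene with T for U. The first set shows UGUA under the 3'UTR peaks, with TGTA in capitals, because this tetramer is what NUDT21 recognises. UBE2G1 had 2 copies 6 nt apart under 1 peak, and the UBE2H copies lay under neighbouring peaks.
UBE2G1 (chr17:4272281-4272310, minus strand): aatTGTAaagaccTGTAcatagcacaacat
UBE2G1 (chr17:4270751-4270780, minus strand): cgttataaaaaccTGTAaacattatacaaa
UBE2H (chr7:129833287-129833316, minus strand): agtttagaagtgcTGTAttccacaaggttt
UBE2H (chr7:129833619-129833648, minus strand): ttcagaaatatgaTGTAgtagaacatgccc
UBE2D3 (chr4:102802599-102802628, minus strand): catatcaaggcggTGTAttctttttgacaa

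The second set shows UBE2D3 at its ends, because no UGUA lay under its highest 3'UTR peaks. Capitals mark the stop codon of the canonical transcript in the first window, which a peak covered. In the second, they mark TGTA 64 nt before the canonical 3' end, where no peak of UBE2D3 lay. In the third, capitals mark the exon at the 5' splice site (the donor) under another peak.
UBE2D3 stop codon (chr4:102797405-102797434, minus strand): ctcagaagtatgccatgTGAtgctacctta
UBE2D3 canonical end (chr4:102794430-102794459, minus strand): tctgcataagactTGTAatagctgaagtta
UBE2D3 donor (chr4:102799392-102799421, minus strand): AACAGACAGAGATAAgtaagtatgttaaaa

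The last set shows donors under peaks of other UBE2 genes, exon in capitals, because donors were covered by 15 of the 54 peaks. The donors of UBE2N, UBE2B and UBE2Q1 lie under peaks in coding sequence, that of UBE2S under an intron peak and that of UBE2G2 under a 3'UTR peak. Each window is centred on its donor, and those of UBE2N and UBE2Q1 run past the peak into the intron.
UBE2N (chr12:93441840-93441869, minus strand): CGCAGGATCATCAAGgtaaccgcccaggcc
UBE2B (chr5:134371625-134371654, plus strand): GCGGGATTTCAAGCGgtaagggccttcacc
UBE2S (chr19:55406800-55406829, minus strand): CCATCGAGGGCCCTGgtgagtttggaagga
UBE2G2 (chr21:44777284-44777313, minus strand): TGTTTCATCCCAACAgtaagtgcttttgga
UBE2Q1 (chr1:154558212-154558241, minus strand): CACTGCAACATCACGgtgaggaccccctcg

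Each peak was placed in a region by its midpoint over all transcripts of the gene, with 3'UTR taken before 5'UTR, coding sequence (CDS), exon of a noncoding transcript and intron. Of the 54 peaks, 13 lay in a 3'UTR (24.1%, 13.5 to 37.6), against 29.1% over all protein-coding genes. The CDS held 8 (14.8%, 6.62 to 27.1, against 22.5%), the 5'UTR 4 (7.41%, 2.06 to 17.9, against 3.14%), noncoding exons 6 (11.1%, 4.19 to 22.6, against 3.73%) and introns 23 (42.6%, 29.2 to 56.8, against 41.6%). The larger share of noncoding exons came from UBE2G2, which held 5 of the 6. The 5'UTR share rests on 4 peaks and on the order of regions. On the canonical transcript, the higher one of UBE2D3 lay in an intron and that of UBE2V2 in CDS. Per 100 kb of sequence, the UBE2 genes had 14.1 peaks in 3'UTRs (against 11.4 in all protein-coding genes), 17.5 in 5'UTRs (against 6.04) and 40.2 in CDS (against 16.4). Noncoding exons had 18.9 (against 3.26) and introns 1.15 (against 0.672).

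**Figure D1:**
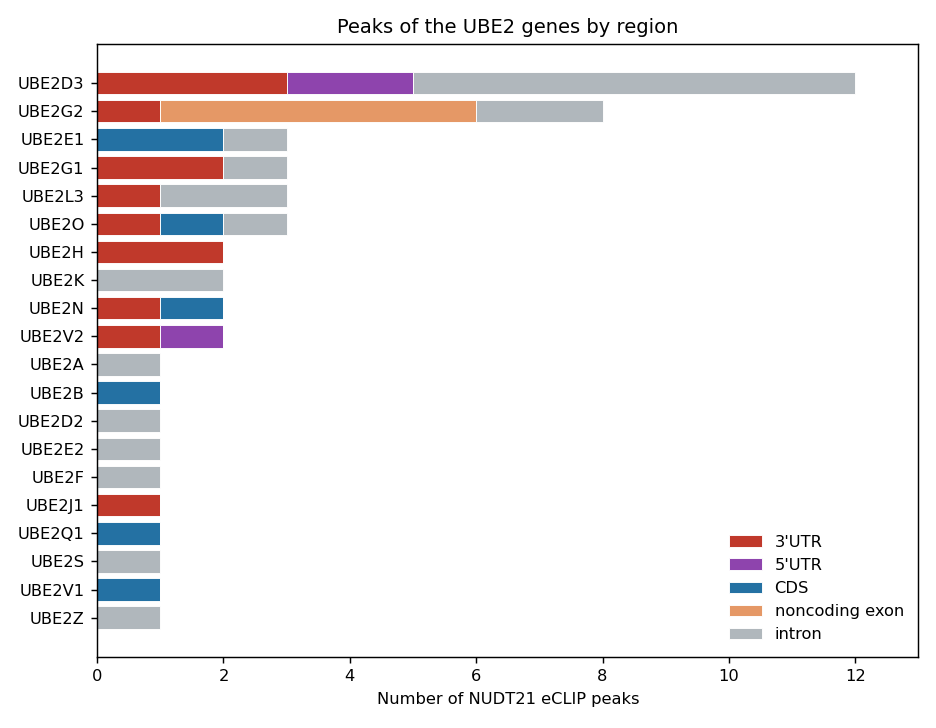
Number of NUDT21 eCLIP peaks in 20 of the 21 UBE2 genes with a peak, coloured by the region of the peak midpoint. UBE2D3 with 12 peaks and UBE2G2 with 8 held 20 of the 54, and 10 genes had 1 peak each.

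The peaks were unevenly spread among the genes. UBE2D3 had 12 and UBE2G2 had 8, together 20 of the 54. UBE2E1, UBE2G1, UBE2L3 and UBE2O had 3 each, and UBE2H, UBE2K, UBE2N and UBE2V2 had 2 each. The 10 genes with 1 peak were UBE2A, UBE2B, UBE2D2, UBE2E2, UBE2F, UBE2J1, UBE2Q1, UBE2S, UBE2V1 and UBE2Z. The genes with no listed peak were UBE2C, UBE2D1, UBE2D4, UBE2E3, UBE2J2, UBE2L5, UBE2L6, UBE2M, UBE2NL, UBE2Q2, UBE2QL1, UBE2R2, UBE2T, UBE2U and UBE2W. Among genes with a peak, 12 or more peaks were found in 184 of 6476 protein-coding genes (2.84%).

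Peak height followed the region within the UBE2 genes, as it did over all protein-coding genes. Of the 31 exonic peaks, 26 reached 5 steps, and of the 23 intron peaks 3 did. Over all protein-coding genes, 12.5% of intron peaks reached 5 steps. The exonic shares there were 66.3% in 3'UTRs, 81.3% in CDS, 49.8% in 5'UTRs and 28.2% in noncoding exons. The intron peaks of the UBE2 genes had a median fold enrichment of 1.17, which was also the lowest value in the list. Of these intron peaks, 16 were 1 step high. The median of intron peaks over all protein-coding genes was also 1.17. The 3'UTR peaks had a median of 2.09 and 7 steps, and over all protein-coding genes these medians were 2.12 and 7. The 4 peaks in 5'UTRs had a median of 2.52, against 1.82 over 617 such peaks, and the 8 CDS peaks had a median of 1.97, against 2.37. Exonic peaks were also short, with a median of 64 nt in 3'UTRs, whereas intron peaks had a median of 308 nt.

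**Figure D2:**
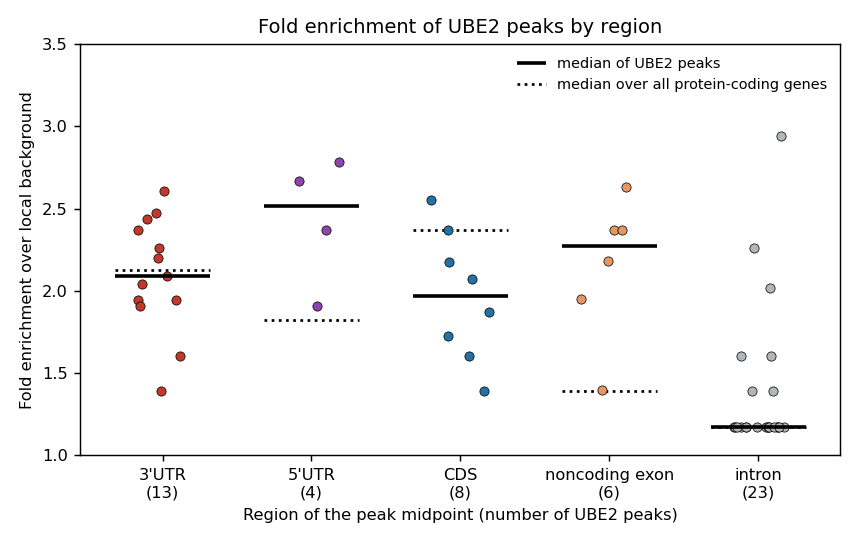
Fold enrichment over the local background of the 54 peaks of UBE2 genes, by region of the midpoint. Each point is 1 peak, solid lines are the medians of the UBE2 peaks, and dotted lines are the medians of all peaks in protein-coding genes. Most intron peaks sit at the lowest value, 1.17, and every peak of the other regions sits above it.

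The UbcH5 enzymes UBE2D1 to UBE2D4 work with a broad range of E3 ligases, and UBE2D3 stood out among them. UBE2D3 held 12 peaks, UBE2D2 held 1 intron peak of 1 step (fold enrichment 1.17), and UBE2D1 and UBE2D4 held none. UBE2D3 lies on the minus strand of chromosome 4 and has 33 annotated transcripts, of which 7 are annotated as targets of nonsense-mediated decay (NMD), the pathway that degrades transcripts with an early stop codon. On the canonical transcript UBE2D3-210, its peaks lay in intron 1, exon 2, intron 2, intron 4 and exons 5, 7 and 8, and the last peak lay upstream of that transcript.

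Of these 12 peaks, 3 were 3'UTR peaks by the order of regions used, and none of the 3 had its midpoint in the canonical 3'UTR. The peak at chr4:102797405-102797452 had a fold enrichment of 2.37 and 8 steps. It lay over the canonical stop codon, with 38 nt in the canonical CDS and 10 nt in the canonical 3'UTR. The same sequence, at 97.9% identity, is also found in the pseudogene UBE2D3P1, where no peak was listed. Its midpoint was CDS in 14 transcripts and 3'UTR in 2, the protein-coding UBE2D3-203, whose reading frame ends in an extra exon upstream and whose 3'UTR measures 1328 nt, and the NMD transcript UBE2D3-226. GENCODE gives these 2 transcripts support levels of 2 and 4, where 1 is the best and 5 the weakest.

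The other two 3'UTR peaks of UBE2D3 were placed there by NMD transcripts alone. The peak at chr4:102799388-102799448 (fold enrichment 2.44, 8 steps) lay in exon 7 of the canonical transcript, where 15 transcripts have CDS. UBE2D3-226 and UBE2D3-220, with support levels of 4 and 5, have 3'UTR there. It ran 19 nt past the donor of that exon into the intron. The peak at chr4:102802558-102802672 (1.61, 3 steps) lay over exon 5, where 19 transcripts have CDS and 7, all NMD transcripts, have 3'UTR. That peak covered the whole exon with its acceptor and donor, and held the 1 UGUA found in the 3'UTR peaks of UBE2D3.

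The remaining UBE2D3 peaks were 7 in introns and 2 in 5'UTRs. Of the intron peaks, 5 lay in canonical intron 4, 7033 nt long, and none of these 5 was higher than 3 steps. The 5'UTR peak in exon 2, at chr4:102826509-102826596, had a fold enrichment of 1.91 and 6 steps. The other, at chr4:102827009-102827056, was the highest of the gene in steps, with 9, and had a fold enrichment of 2.37. It lay in the 5'UTR of 1 transcript and in an intron of 19, the canonical transcript among them. The canonical 3' end of UBE2D3 was 3045 nt from the midpoint of the nearest peak, and the canonical 3'UTR, 3032 nt long, held no peak apart from the 10 nt next to the stop codon.

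**Figure D3:**
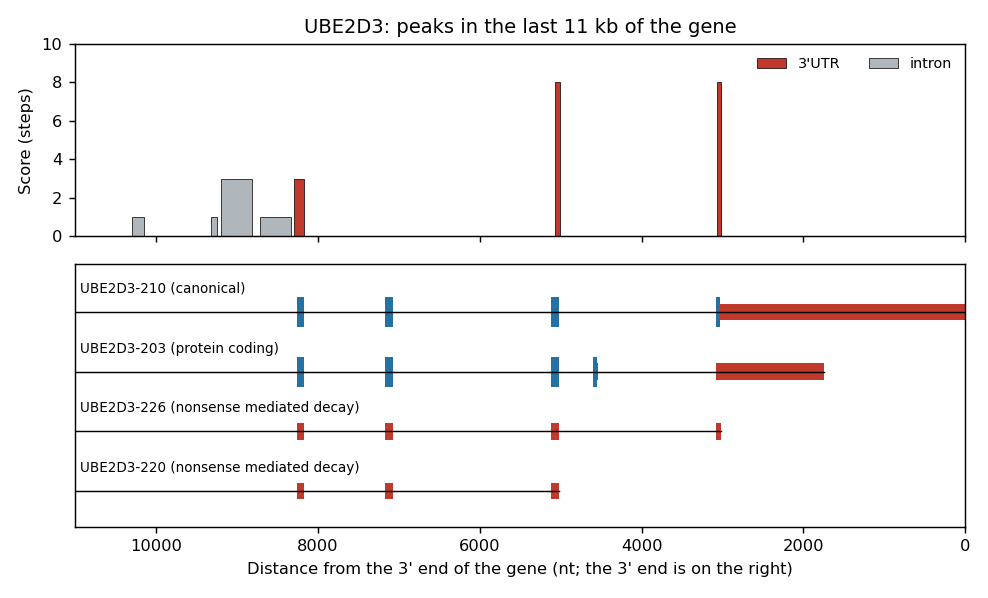
The last 11000 nt of UBE2D3, with 7 of its 12 peaks drawn above 4 transcripts, as distance in nt from the 3' end of the gene. Bar heights are Score steps and bar colours the region of the midpoint. In the transcripts, blue boxes are CDS, red boxes 3'UTR and lines introns. The 3 red peaks sit on exons that are CDS in UBE2D3-210 and 3'UTR in at least 1 of the other transcripts. The long canonical 3'UTR at the right holds no peak apart from 10 nt next to the stop codon.

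UBE2G1, UBE2G2, UBE2J1 and UBE2J2 are known for degradation of proteins from the endoplasmic reticulum, with UBE2J1 and UBE2J2 anchored in its membrane, and this group held 12 peaks in 3 genes. UBE2G2 held 8, UBE2G1 held 3, UBE2J1 held 1 and UBE2J2 held none. In UBE2G2, 7 of the 8 peaks reached 5 steps, and this gene was unlike UBE2D3 in that its high peaks lay mostly outside the canonical exons.

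Canonical intron 4 of UBE2G2, 3611 nt long, held 5 peaks, of 5 to 8 steps. Over all protein-coding genes, 26 of the 6218 canonical introns with a peak held at least 5 peaks of that height (0.418%). This intron was singled out after its values were seen. Of the 5 peaks, 3 fell in an exon of the retained-intron transcript UBE2G2-206. They lay at chr21:44773806-44773926 (2.37, 7 steps), chr21:44774954-44775069 (2.18, 6 steps) and chr21:44775285-44775376 (2.63, 8 steps). The last was the highest of UBE2G2. The peak at chr21:44776792-44777010 (1.95, 5 steps) lay in the retained-intron transcript UBE2G2-203. The peak at chr21:44776389-44776743 (2.26, 6 steps) was in no exon of any transcript, and lay 91 nt from the nearest exon.

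The only 3'UTR peak of UBE2G2, at chr21:44777268-44777438, had a fold enrichment of 2.26 and 6 steps. It covered exon 4 of the canonical transcript UBE2G2-202 with its acceptor and donor, 119 nt of CDS and 52 nt of intron. The midpoint was CDS in 3 transcripts and 3'UTR in the NMD transcript UBE2G2-209 alone, which has a support level of 4. The canonical 3'UTR of UBE2G2, 2797 nt long, held no peak. A noncoding exon of UBE2G2-207 near the start of the gene held the peak at chr21:44801032-44801151 (2.37, 7 steps), and the last peak, in intron 3, was 1 step high.

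**Figure D4:**
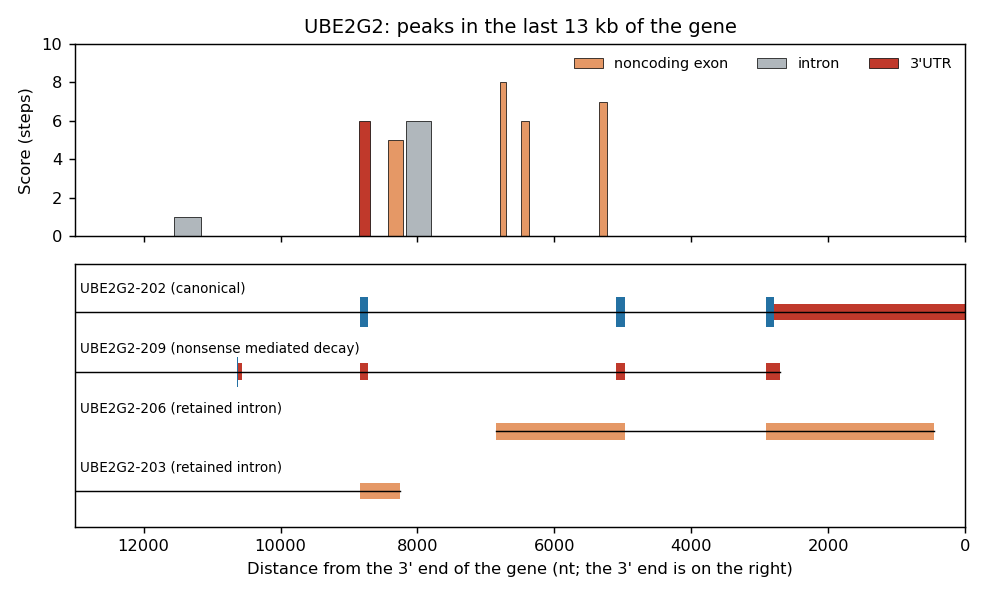
The last 13000 nt of UBE2G2, with 7 of its 8 peaks drawn above 4 transcripts, as distance in nt from the 3' end of the gene. Bar heights are Score steps, bar colours the region of the midpoint, and in the transcripts blue is CDS, red 3'UTR and orange exons of noncoding transcripts. The 5 peaks of canonical intron 4 stand between the exons of UBE2G2-202, and 3 of them sit on the long exon of UBE2G2-206.

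UBE2G1 had both of its high peaks in the canonical 3'UTR, which is 3295 nt long. The peak at chr17:4272269-4272348 (1.94, 7 steps) had its midpoint 246 nt past the stop codon and held 2 UGUA. It was 3'UTR in 4 transcripts, the canonical UBE2G1-201, UBE2G1-204 and the NMD transcripts UBE2G1-206 and UBE2G1-203, and lay 11 nt from the end of UBE2G1-203. The peak at chr17:4270729-4270792 (2.09, 7 steps) lay 1794 nt past the stop codon, held 1 UGUA, and was 3'UTR in UBE2G1-201 alone. The intron peak of UBE2G1 was 1 step high and reached 20 nt into exon 2 across the acceptor.

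UBE2J1 has 1 annotated transcript, so its peak had 1 possible region. That peak, at chr6:89329615-89329662 (1.94, 7 steps), lay in the 3'UTR with its midpoint 41 nt past the stop codon and 3013 nt before the transcript end, and held no UGUA.

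UBE2N, with UBE2V1 or UBE2V2 as a partner that lacks the active-site cysteine, builds chains linked through lysine 63, and all 3 genes held peaks. In UBE2N, a 3'UTR peak at chr12:93409550-93409606 had a fold enrichment of 2.48 and 7 steps, 461 nt past the stop codon of a 3'UTR of 4355 nt. It was 3'UTR in UBE2N-201 and UBE2N-205, with no CDS in any transcript, and lay 164 nt from the end of UBE2N-204. A second UBE2N peak (1.87, 5 steps) covered the start of the coding sequence and the donor of exon 1.

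In UBE2V2, a 3'UTR peak at chr8:48063160-48063207 (2.20, 6 steps) lay 2355 nt past the stop codon of UBE2V2-207, the only transcript that made it 3'UTR. The highest UBE2V2 peak (2.67, 9 steps) was in exon 2, which was 5'UTR in 2 transcripts and CDS in 3, the canonical transcript among these 3. UBE2V1 held 1 CDS peak (1.39, 2 steps) outside its canonical transcript, in sequence that is also an intron of the readthrough gene PEDS1-UBE2V1.

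UBE2H, the E2 of the CTLH ligase complex, had both of its peaks in the canonical 3'UTR, which is 4205 nt long. The peak at chr7:129833593-129833718 (2.04, 5 steps) lay 1282 nt past the stop codon, and the peak at chr7:129833243-129833408 (1.39, 2 steps) lay 1612 nt past it. Each held 1 UGUA, and both were 3'UTR in UBE2H-201 and UBE2H-210.

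UBE2L3, an E2 for HECT and RBR ligases such as parkin, had a 3'UTR peak at chr22:21622417-21622471 (1.91, 6 steps), 775 nt past the stop codon of a 3'UTR of 2365 nt. All 3 protein-coding transcripts in which it was 3'UTR, UBE2L3-201, UBE2L3-202 and UBE2L3-204, share that 3'UTR length. The other UBE2L3 peaks were neighbours in intron 1, of 2 steps and 1 step.

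UBE2O, a large enzyme that acts as both E2 and E3, had the highest fold enrichment among the 13 3'UTR peaks. That peak, at chr17:76390079-76390264, reached 2.61 and 8 steps, and lay 772 nt past the stop codon in UBE2O-201 and also in the 3'UTR of UBE2O-204. Its midpoint was 715 nt from the canonical end, the shortest such distance in the 36 genes. UBE2O also held a CDS peak in exon 9 (1.72, 5 steps) and an intron peak of 1 step.

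**Figure D5:**
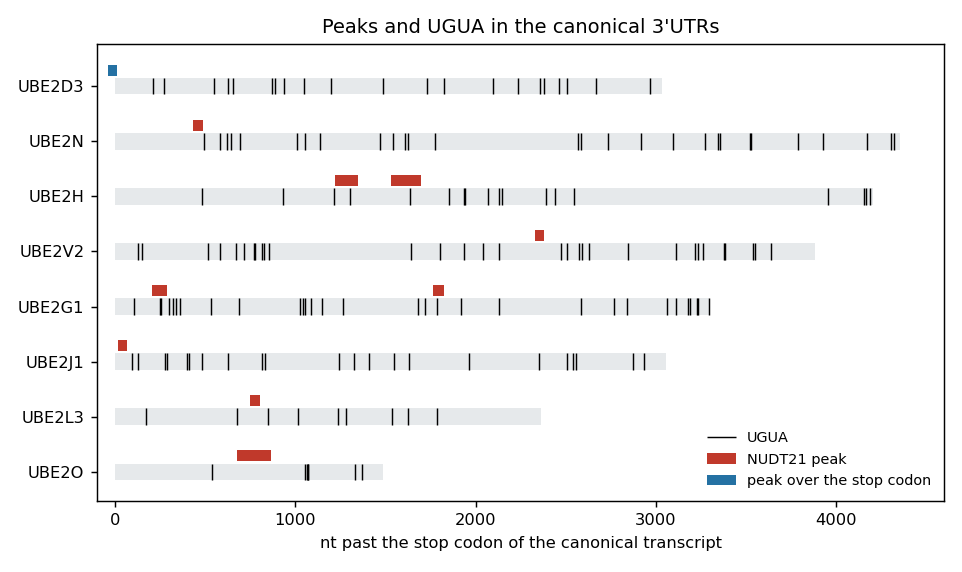
Canonical 3'UTRs (grey bars) of the 7 genes with a peak in it and of UBE2D3, in nt past the stop codon. Black ticks are UGUA, red boxes are 3'UTR peaks drawn to scale, and the blue box is the UBE2D3 peak over the stop codon. The midpoints of the 9 red boxes lie 41 to 2355 nt past the stop codon, all at least 715 nt before the end of the bar.

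In sum over the 13 3'UTR peaks, the midpoint of 9 lay in a canonical 3'UTR, in UBE2G1, UBE2H, UBE2J1, UBE2L3, UBE2N, UBE2O and UBE2V2, and the midpoint of 4 in canonical CDS, in UBE2D3 and UBE2G2. These 4 were also the ones that changed region when CDS was taken first (30.8%, 9.09 to 61.4, against 31.6% of 5706 3'UTR peaks over all genes). A 3'UTR peak was then left in 7 of the 36 genes (19.4%, 8.19 to 36.0), against 11.4% of all genes. The 9 canonical ones had a median position at 32.8% of the 3'UTR from the stop codon, against 40.0% over 3516 such peaks, and a median distance to the canonical end of 2593 nt, against 1600 nt.

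None of these 9 lay within 150 nt of the canonical end (0%, 0 to 33.6, against 5.01%). When the end of any annotated transcript counted, 5 of the 13 lay within 150 nt of an end (38.5%, 13.9 to 68.4, against 26.8%). These 5 were the 3 of UBE2D3, the one of UBE2G2, and the UBE2G1 peak beside the end of UBE2G1-203. Those of UBE2D3 and UBE2G2 lay in canonical CDS and counted as 3'UTR by the order of regions. The UBE2D3 peaks of 8 steps lay 25 and 11 nt from the ends of UBE2D3-226 and UBE2D3-220. These NMD transcripts are among those that placed the peaks in a 3'UTR. With CDS taken first, 1 of the 5 was left.

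UGUA on the strand of the gene was found in 24 of the 54 peaks (44.4%, 30.9 to 58.6), against 44.3% over all protein-coding genes. By region, it was in 5 of 13 3'UTR peaks (38.5%, against 40.8%), in 1 of 8 CDS peaks (against 20.9%), in 3 of 6 noncoding exon peaks (50%, against 50.9%) and in 15 of 23 intron peaks (65.2%, against 60.7%). The 4 peaks in 5'UTRs held none (upper bound 60.2%, against 19.4%). The intron peaks were also the longest, so the share per peak is not a density. Among the 29 peaks of 5 or more steps, 7 held UGUA, and no share over all protein-coding genes was taken at that height. Per kb, the 3'UTR peaks held 4.90 UGUA (6 in 1225 nt), and the rest of the 3'UTRs of the 36 genes held 6.0 (547 in 91221 nt). These 3'UTR peaks include the 4 in canonical CDS, of 48, 61 and 115 nt in UBE2D3 and 171 nt in UBE2G2. Of those 4, only the UBE2D3 peak of 115 nt held a UGUA. The 2 densities therefore do not compare canonical 3'UTR sequence alone.

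The canonical 3'UTRs of 34 of the 36 genes held UGUA (94.4%, 81.3 to 99.3, against 84.5% of all genes). In the last 100 nt of the canonical transcript, 18 of 36 held it (50%, 32.9 to 67.1, against 53.2%), UBE2D3 among them as shown above. No such UGUA lay under a peak, since no peak came within 150 nt of a canonical end in any of the 36 genes.

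Donors were covered by 15 of the 54 peaks (27.8%, 16.5 to 41.6), against 18.9% over all protein-coding genes, and acceptors by 5 (9.26%, 3.08 to 20.3, against 9.14%). Among the 8 CDS peaks, 6 covered a donor (75.0%, 34.9 to 96.8, against 32.9%) and none an acceptor (upper bound 36.9%, against 7.97%). UBE2B, UBE2E1, UBE2N, UBE2Q1 and UBE2V1 were among the genes that held them. Of the 3 intron peaks with 5 or more steps, 2 also covered a donor, that of UBE2S among them (66.7%, 9.43 to 99.2, against 31.3%).

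Of the NEDD8 enzymes UBE2F and UBE2M and the ISG15 enzyme UBE2L6, only UBE2F had a peak, where 33.4% of all protein-coding genes had 1 or more. UBE2F held 1 intron peak of 1 step, in sequence shared with the readthrough gene UBE2F-SCLY, and UBE2M and UBE2L6 held none. UBE2S, which extends ubiquitin chains for the anaphase-promoting complex, held 1 peak at chr19:55406783-55406830 (2.01, 7 steps), with 16 nt in exon 2 and 32 nt in intron 2. UBE2C, which starts those chains, held none.

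UBE2E1 held 2 CDS peaks and an intron peak of 1 step. The peak at chr3:23890544-23890598 (2.37, 8 steps) lay in the last exon, its midpoint 35 nt before the stop codon, and overlapped the 3'UTR of NKIRAS1 on the opposite strand. The peak at chr3:23889255-23889336 (2.07, 6 steps) lay in an exon of 1 transcript that is part of intron 5 in the canonical one. UBE2E2 held 1 intron peak of 1 step in an intron of 282295 nt, and UBE2E3 held none.

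The RAD6 homologues UBE2A and UBE2B, which modify PCNA at damaged DNA, held 1 peak each. That of UBE2B, at chr5:134371473-134371794 (1.61, 3 steps), covered 27 nt of the canonical 5'UTR, the first 44 coding nt and the donor of exon 1. That of UBE2A was 1 step high and lay outside the canonical transcript, in an intron that overlaps the 3'UTR of STEEP1 on the opposite strand. By this peak alone UBE2A counts among the 21 genes with a peak. The list gives no strand, so for this peak and the last-exon peak of UBE2E1 the 2 overlapping genes cannot be told apart. UBE2Q1 held a CDS peak at the donor of exon 1 (2.18, 7 steps), and UBE2Q2 and UBE2QL1 held none. UBE2K, which makes chains through lysine 48, held 2 intron peaks of 1 step, and UBE2Z, which takes ubiquitin or FAT10 from UBA6, held 1.

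Sequence shared with other loci touched 7 of the 54 peaks, all exonic. Each had at least 1 further match in hg38 with at least 90% identity over at least 90% of its length, and none of the matches held a listed peak. The UBE2D3 peak over the stop codon had 5, UBE2D3P1 the best of them. The UBE2D3 peak in exon 2 had 1 (97.7%). The last-exon peak of UBE2E1 matched UBE2E3, UBE2E4P and UBE2E2 (94.4% at best), both peaks of UBE2H had 1 match each (95.8% and 98.4%), and both peaks of UBE2N had 2 (96.6% and 95.7% at best), among them UBE2NL and UBE2NP1. How reads with several matches were treated is not given in the sources used here.

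Among the other genes of the pathway, the ubiquitin gene UBB held 1 peak, in its 3'UTR (2.01), and RPS27A held none. Over all protein-coding genes, 33.4% had a peak, and 14.3% of those with a 3'UTR had a 3'UTR peak. Of 9 genes for E1 enzymes and their subunits, 6 had a peak and 2 had a 3'UTR peak, UBA2 and NAE1. Neither of those 2 kept it with CDS taken first, as in UBE2D3 and UBE2G2. UBA6 held 6 peaks, none of 5 steps. Of 7 E2 genes with other symbols, 4 had a peak, CDC34, BIRC6, ATG10 and AKTIP, and AKTIP had the only 3'UTR peak among them. BIRC6, a giant E2 and E3 hybrid, held 7.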

How the data were processed

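NUDT21 eCLIP-seq of J-Gamma1 cells was analysed from 1 peak list, that of the antibody library. The authors trimmed reads (fastp), collapsed duplicates by their molecular identifiers, discarded rRNA reads, mapped what was left to hg38 and called peaks with MACS2, with local windows of 1000 and 10000 nt and duplicates limited to 1. The aligner, and whether the input was the control, are not given in the sources used here. The deposited fold enrichment is a ratio to the local background. The deposited p-value and FDR are those of MACS2. The authors' stated q-value limit was 0.05, but 19 of the 20499 listed peaks have an FDR below it, none in a UBE2 gene. The deposited Score is a signal whose unit the authors do not state, and its values take whole steps of 0.228, to within 0.0063. Positions count from 1. Depth is unknown, there is no strand and no replicate, so no test was made.

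Regions came from GENCODE 44 over all transcripts except readthrough ones, by peak midpoint. Canonical means Ensembl's canonical transcript. Over all protein-coding genes, 19642 pairs of a peak and a gene were counted. Intervals are exact Clopper-Pearson 95% and cover counting error only. UGUA was searched as TGTA on the gene strand alone. Matches to other loci came from blastn 2.17.0. Figures were drawn with matplotlib 3.10.9, sequence was read with pysam 0.24.0, intervals came from scipy 1.17.1, and tables were handled in Python 3.11.15 with pandas 2.3.3 and numpy 2.4.6. The counting was tested on simulated data.

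The members and lists were chosen with earlier results of these data known. Every UBE2 gene with a peak was named with its count by region, each 3'UTR peak was given with its transcripts, and for other regions the highest peak of each gene with 3 or more peaks or with a peak of 5 or more steps. Genes without a peak were listed by name. A few genes are not reported here by name, although counts over the 36 genes and 54 peaks include every member. Alternatives were limits of 2 and 5 steps, a fold enrichment of at least 2, an FDR under 0.05, merging within 100 nt, any overlap, CDS first, the canonical transcript only, decay transcripts left out, other UGUA windows and motifs and other distances. The alternatives chosen after seeing the data left out UBE2D3 and UBE2G2, peaks with a match elsewhere, or incomplete ends, or used the canonical end only.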

Additional observations from a re-analysis of the deposited data

Results flagged for a closer look

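Outside the 36 genes, 5 further peaks lay in genes with a UBE2 symbol that are not among them, a signal in data that the report does not use. The readthrough gene UBE2F-SCLY held 4 of the 5, of 1, 1, 2 and 5 steps, of which the last and the one of 2 steps also lay in SCLY. The lncRNA UBE2E1-AS1 held the other, with a fold enrichment of 1.39 and 2 steps. The input, which would be the control, was not analysed here.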

How the results depend on the processing

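Of 67 values under an alternative, 45 stayed within the limits used here and 22 moved. An FDR under 0.05 left 0 genes with a peak, 0 peaks, 0 in 3'UTRs, 0 genes with a 3'UTR peak, 0 with UGUA and 0 near an end, so no share of peaks in 3'UTRs could be given. With 5 or more steps, genes with a peak went from 21 to 13, peaks from 54 to 29, the 3'UTR share from 24.1% to 37.9% and peaks with UGUA from 24 to 7. A limit of 2 steps left 14 with UGUA. A fold enrichment of at least 2 left 11 genes, 22 peaks, 8 in 3'UTRs, 5 with UGUA and 3 near an end. Of the 5 3'UTR peaks within 150 nt of an end, 1 was left with CDS first, 1 with decay transcripts left out, 0 with the canonical transcript only and 0 with the canonical end only. Without UBE2D3 and UBE2G2, 34 peaks were left, 14 of them with UGUA. The limits on height and the left-out genes lower counts by construction. The limit of 5 steps left 11 of the 13 3'UTR peaks and 3 of the 23 intron peaks, which raised the 3'UTR share. Over all protein-coding genes it left 66.3% of 3'UTR peaks and 12.5% of intron peaks. The cause of this difference in height was not tested. No paired analysis was possible because the antibody and input samples share only a replicate number, 1 library was analysed and no result comes from a test. With 1 library of unknown depth, the spread between replicates is not known for any value.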

Other observations

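Neighbouring peaks were spaced at repeated distances over the whole list, the UBE2 genes included. Of 33 pairs of neighbours in a gene, 3 had starts 476 nt apart, 1 each in UBE2D3, UBE2G2 and UBE2K, and 4 had a gap of exactly 48 nt, which is also the length of the shortest peaks in the list. Over the list, pairs were neighbours on a chromosome, whether or not they shared a gene. Starts 476 nt apart were found in 2001 of these 20471 pairs, and a gap of 48 nt in 755. That was the commonest gap, and the next commonest, 524 nt, was found in 139.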
